A study of Homo sapiens with 3 samples.

Results

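The 10 genes described here make short structural noncoding RNAs, which are not translated and work inside RNA-protein particles. They are RN7SL1, RN7SL2, RN7SK, RMRP, RPPH1, TERC, BCYRN1, VTRNA1-1, RNY1 and RNY3. They were picked by symbol, through the Ensembl identifiers of GENCODE release 44, because RN7SL1 and RMRP were known from these data to be among the genes with the highest levels and to differ between replicates. Their levels and replicate differences are therefore given as a description with no test. All 10 were found among the 62754 genes of the deposited table. Reads were assigned to 4 of them, RN7SL1, RMRP, BCYRN1 and RNY1, and the other 6 were listed at 0 in every replicate. The name abundant thus holds in this table for RN7SL1 and RMRP only, at means of 85512 and 10628 TPM, and BCYRN1 and RNY1 had means of 63.4 and 34.7 TPM.

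The RNA came from MCF10A, an immortalized breast epithelial cell line of human origin that does not form tumors. All cells carried the empty vector of the Retro-X Tet-One inducible system, with no gene of interest in it, had been selected with puromycin and received no treatment. There were 3 replicates of this 1 condition, and their titles and library names do not name a batch. Nothing in the labels says whether the replicates came from separate cultures, so the spread between them may be technical. The values are TPM, which relate read numbers to gene length and sum to 1000000 in each replicate. Reads per gene were recovered from the TPM and the annotated lengths, with totals of 15273329, 15446347 and 11166546 in replicates 1, 2 and 3. The labelled cell type was checked against its markers. All 10 breast epithelial and basal markers (KRT5, KRT14, KRT17, KRT8, KRT18, CDH1, EPCAM, TP63, ITGA6 and LAMA3) reached 1 TPM in each replicate, with sums of 16688, 16097 and 12978 TPM. The 10 markers of immune, endothelial, stromal and muscle cells summed to 16.4, 15.8 and 16.1 TPM. Of these, 3 (DCN, COL1A1 and PECAM1) were above 1 TPM, and CD3E, CDH5 and ACTC1 had 0 reads.

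Most of these RNAs are made by RNA polymerase III, which ends transcription at a run of T, and TERC is made by RNA polymerase II. The 7SL RNA of RN7SL1 and RN7SL2 is the scaffold of the signal recognition particle, which brings ribosomes that make secreted and membrane proteins to the endoplasmic reticulum. The 7SK RNA of RN7SK holds the elongation factor P-TEFb in an inactive particle with HEXIM proteins. RMRP and RPPH1 are the RNA subunits of the related enzymes RNase MRP, which acts in the processing of ribosomal RNA, and RNase P, which trims the 5′ end of precursor tRNAs. TERC holds the template from which telomerase adds telomere repeats. BCYRN1 makes BC200, an RNA with an Alu-like 5′ part that has been described as a regulator of translation. VTRNA1-1 makes a vault RNA, a component of the vault particle, and RNY1 and RNY3 make Y RNAs, which bind the proteins Ro60 and La.

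The likeness of the 7SL genes is given first because the highest value of the table rests on telling them apart. RN7SL1 (ENSG00000276168) is a single exon of 299 bases at chr14:49586580-49586878 of hg38 on the plus strand. RN7SL2 (ENSG00000274012) is a single exon of 300 bases at chr14:49862550-49862849 on the minus strand. The genes were identical at 295 of 299 aligned bases, or 98.7%. RN7SL2 was 1 base longer. The longest stretch of identical bases was 205, and 72.1% of the 32-base windows of RN7SL2 also occur in RN7SL1. Within RN7SL1, none of the 268 windows of this length was found only once on the main chromosomes of hg38, and the median window had 7 copies. RN7SL3 (ENSG00000278771), a further full-length 7SL gene at chr14:49853616-49853914 on the minus strand, matched RN7SL1 at 292 of 299 bases. Reads of the 7SL genes can be separated only over the few differing bases, so the division of reads between them is uncertain.

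The sequence of RMRP is shown, 5′ to 3′ on the strand of the RNA as read from hg38 at the GENCODE position, because it had the second highest level in replicate 3 and, unlike the 7SL genes, is unique in sequence. RMRP (ENSG00000277027) is a single exon of 264 bases at chr9:35657754-35658017 on the minus strand, and 100% of its 233 windows of 32 bases were found once in the genome.
RMRP: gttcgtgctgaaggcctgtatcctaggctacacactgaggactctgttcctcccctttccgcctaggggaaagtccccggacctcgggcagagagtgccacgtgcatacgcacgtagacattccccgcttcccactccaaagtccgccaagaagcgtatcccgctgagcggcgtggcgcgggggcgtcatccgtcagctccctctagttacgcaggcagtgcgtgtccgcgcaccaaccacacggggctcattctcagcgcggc

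BCYRN1 and the Y RNAs were aligned with the members they resemble. BCYRN1 (ENSG00000236824) has 200 bases at chr2:47335315-47335514 on the plus strand. In the best alignment with RN7SL1, with gaps at the ends free, 122 bases matched, and identity over the aligned stretch with its gaps was 60.4%. The longest identical run was 15 bases, so no 32-base window of BCYRN1 occurs in RN7SL1. Of its 169 windows, 3 were found once in hg38. RNY1 (ENSG00000201098) has 113 bases at chr7:148987136-148987248 on the minus strand, and RNY3 (ENSG00000202354) has 102 bases at chr7:148983755-148983856 on the plus strand. They matched at 82 bases, with an identity of 72.6%. Of the windows of RNY1, 6.1% were found once in hg38, against 0.0% for RNY3, whose median window had 26 copies.

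The 40 bases in front of each gene were searched for TATA on the strand of the gene, since genes of RNA polymerase III that carry their promoter in front of the start, such as those of 7SK and RNase MRP, have a TATA element there. The letters TATA occurred in 6 of 10 genes, with overlapping matches counted once a gene, and in 8.97% of the 62700 annotated genes. They are in capitals below, and the last base shown is the one before the start.
RN7SK: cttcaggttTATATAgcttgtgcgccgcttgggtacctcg
RMRP: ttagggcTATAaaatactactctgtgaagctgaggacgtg
RPPH1: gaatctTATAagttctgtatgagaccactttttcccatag
TERC: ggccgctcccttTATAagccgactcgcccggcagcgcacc
VTRNA1-1: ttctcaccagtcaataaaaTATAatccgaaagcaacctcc
RNY3: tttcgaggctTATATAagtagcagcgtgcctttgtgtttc
RN7SL1: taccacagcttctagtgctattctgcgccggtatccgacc
BCYRN1: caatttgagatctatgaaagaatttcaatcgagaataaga
The motif began 28 to 34 bases before the start for RN7SK, RMRP, RPPH1, TERC and RNY3, and 21 bases before it for VTRNA1-1. RN7SL1 and BCYRN1, shown for contrast, and RN7SL2 and RNY1 did not hold these letters in the window. A run of at least 4 T lay in the last 5 bases of the gene or the 30 bases after it in 9 of 10 genes, all but TERC, and in 30.2% of all annotated genes. Such matches describe the letters and do not show a site in use. Reads were assigned to 1 of the 6 genes with TATA, RMRP, and to 3 of the 4 without. The matching shares over all annotated genes are not given here. RN7SK, RPPH1, TERC and VTRNA1-1 also share exonic bases with another gene on the same strand, so nothing is read from this count.

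Of the 2 full 7SL genes among the members, RN7SL1 was the highest gene of the table in every replicate. Its levels were 49293, 56610 and 150632 TPM in replicates 1, 2 and 3, or 85512 ± 56514 TPM (SD, n = 3). Replicate 3 stood apart from the other two. The difference on log2(TPM + 1) was 1.61 from replicate 1 to 3 and 1.41 from replicate 2 to 3, and 0.20 from replicate 1 to 2. These are ratios of TPM of 3.06, 2.66 and 1.15. The counting error was small beside them, since the values rest on 77421, 91391 and 201296 reads, and the exact 95% interval of the first ratio from counting alone was 3.03 to 3.08. Per 1000000 reads, which leaves gene length out of the total, RN7SL1 had 5069, 5917 and 18027 reads. RN7SL2 had 0 reads in every replicate, which allows up to 1.90, 1.85 and 2.24 TPM by reads assigned to it.

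**Figure D1:**
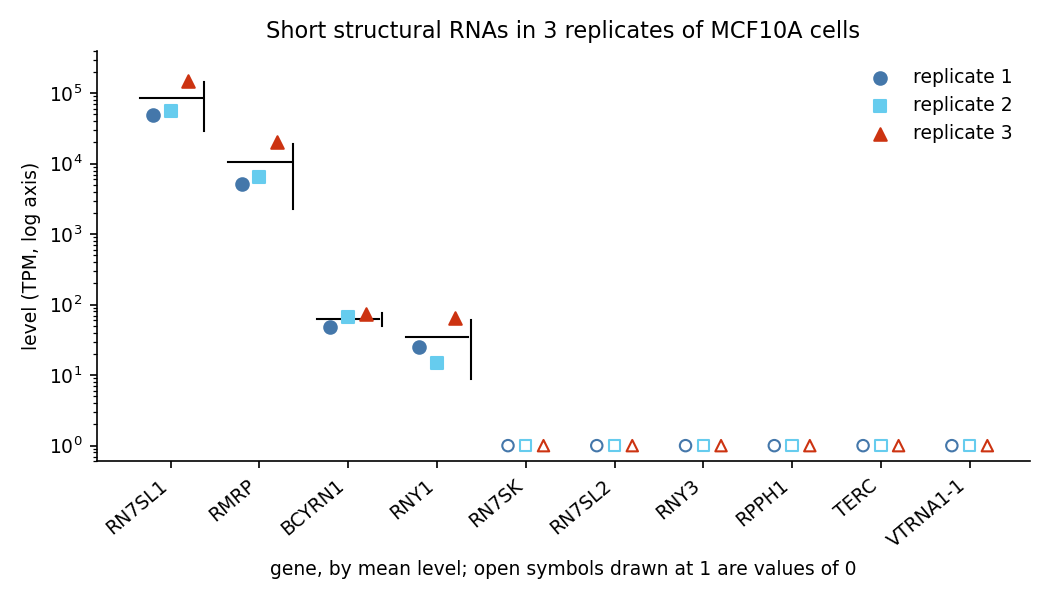
Level of each of the 10 RNAs in TPM on a log axis, with 1 symbol per replicate, a horizontal line at the mean of the 3 replicates and a vertical line of 1 SD either side. RN7SL1 lay between 49293 and 150632 TPM and RMRP between 5108 and 20203 TPM, both highest in replicate 3, and open symbols at the bottom mark the 6 genes listed at 0.

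Other annotated copies of 7SL carried few reads beside RN7SL1. RN7SL3 had 708, 780 and 2283 TPM from 1112, 1260 and 3051 reads, with a ratio of replicate 3 to 1 of 3.22. For each read on RN7SL3 there were 69.6, 72.5 and 65.98 reads on RN7SL1, so the proportion between both genes varied little while both were highest in replicate 3. Of the copies whose symbols end in P, RN7SL471P had 79, 100 and 238 reads and RN7SL4P had 46, 62 and 177 reads. Their ratios of TPM of replicate 3 to 1 were 3.54 and 4.52. RN7SL809P, with 22, 18 and 14 reads, had a ratio of 0.748. The remaining copies were spread thinly. Of 847 annotated 7SL copies other than RN7SL1, RN7SL2 and RN7SL3, 220 had any read, and together they had 523, 939 and 801 reads. RN7SL471P, RN7SL4P and RN7SL809P are named as the copies with the next most reads, chosen after their values were seen.

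**Figure D2:**
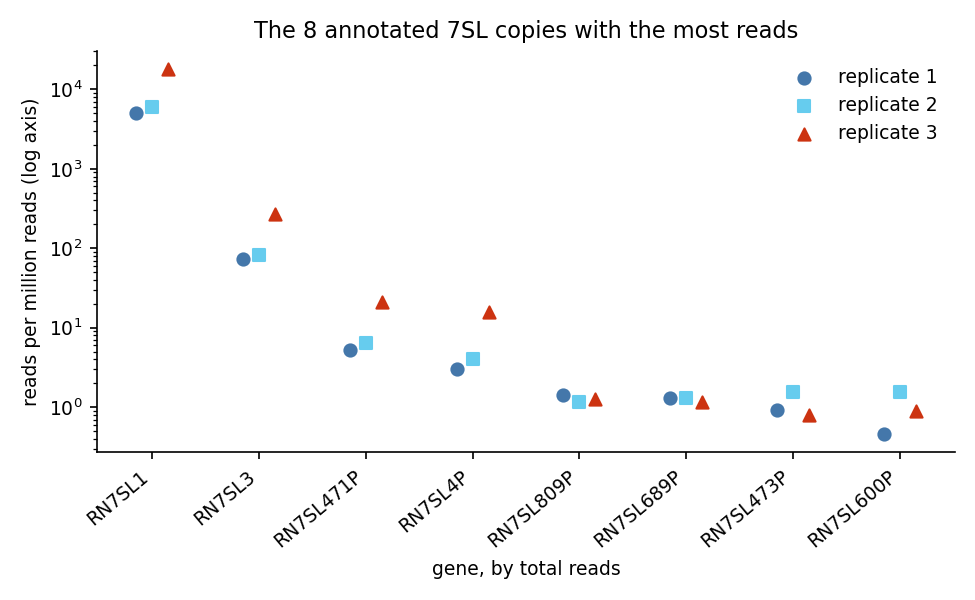
Reads per 1000000 reads on a log axis for the 8 annotated 7SL copies with the most reads, with 1 symbol per replicate. The first 4 copies were highest in replicate 3, and RN7SL1 had 18027 reads per 1000000 in that replicate.

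RMRP had 5108, 6573 and 20203 TPM, or 10628 ± 8324 TPM (SD, n = 3), and was the gene with the 12th, 8th and 2nd highest level in replicates 1, 2 and 3. As for RN7SL1, replicate 3 was the high one. The difference on log2(TPM + 1) was 1.98 between replicates 3 and 1, 1.62 between replicates 3 and 2, and 0.36 between replicates 2 and 1. The ratio of TPM of replicate 3 to 1 was 3.95, with an exact 95% interval from counting of 3.85 to 4.06 on 7081 and 23827 reads. RMRP and RN7SL1 moved together, with RN7SL1 at 9.65, 8.61 and 7.46 times the TPM of RMRP. RMRPP5, the copy of RMRP in the annotation, had 0 reads. RPPH1 (ENSG00000277209), the RNA of the sister enzyme RNase P, had 0 reads in every replicate, which allows up to 1.71, 1.67 and 2.02 TPM by assigned reads.

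BCYRN1 had 48.6, 67.7 and 74.0 TPM, or 63.4 ± 13.2 TPM (SD, n = 3), and varied least among the genes with reads. It was measured by 51, 73 and 66 reads. The difference on log2(TPM + 1) was 0.60 between replicates 3 and 1, and the ratio of TPM was 1.52 with an exact 95% interval from counting of 1.04 to 2.24. Between replicates 3 and 2 the ratio was 1.09, with an interval of 0.771 to 1.54 that includes equal levels.

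RNY1 had 25.4, 14.8 and 63.7 TPM, or 34.7 ± 25.7 TPM (SD, n = 3), from 15, 9 and 32 reads. The assignment of these reads is uncertain too, as 5 of its 82 windows of 32 bases were found once in hg38. Replicate 3 was again the highest, while replicate 2 was the lowest, unlike in RN7SL1 and RMRP. The ratio of TPM of replicate 3 to 1 was 2.51, with an exact 95% interval from counting of 1.32 to 4.98, and that of replicate 2 to 1 was 0.584, with an interval of 0.225 to 1.42. RNY3 had 0 reads in every replicate, which allows up to 5.64, 5.48 and 6.62 TPM. RNY4, a further Y RNA gene, had 0, 0 and 1 reads. The 809 other annotated copies of Y RNAs had 191, 368 and 175 reads in all, more than RNY1, and 153 of them had any read. Per 1000000 reads, these copies were highest in replicate 2, at 23.8 against 12.5 and 15.7.

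In order of mean level, RN7SL1 was above RMRP, RMRP above BCYRN1 and BCYRN1 above RNY1. The ranges over replicates did not overlap between RN7SL1 and RMRP or between RMRP and BCYRN1. The ranges of BCYRN1 and RNY1 overlapped, with RNY1 in replicate 3 at 63.7 TPM above BCYRN1 in replicate 1 at 48.6 TPM, although within each replicate BCYRN1 was the higher. RN7SL1 and RMRP held 99.86%, 99.87% and 99.92% of the TPM of the 10 genes in replicates 1, 2 and 3. All 10 genes together held 5.45%, 6.33% and 17.1% of all TPM but 0.554%, 0.653% and 2.02% of all reads, since division by a short length weighs short genes up.

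Of the 15640 genes whose mean was at least 1 TPM, 2.79% were at least 2-fold higher in replicate 3 than in replicate 1 on log2(TPM + 1), 1.68% were so against replicate 2, and 5.97% were at least 2-fold higher in replicate 2 than in replicate 1. Among the 10 RNAs, the 4 with reads were above this minimum, and 3, 3 and 0 of these were past the fold in the same pairs. Those 3 were RN7SL1, RMRP and RNY1. Since RN7SL1 and RMRP were picked for this difference, the counts are given beside the background and nothing is read from them. The pairs with replicate 3 share that replicate. The SD of log2(TPM + 1) between replicates was 0.88 for RN7SL1, 1.06 for RMRP, 0.31 for BCYRN1 and 1.03 for RNY1, with a median of 0.95, where the median over the 15640 genes was 0.19. Without replicate 3, the median of the 4 genes was 0.29. Among the 1610 genes whose mean was at least 100 TPM, RMRP had the 2nd and RN7SL1 the 4th highest ratio of replicate 3 to 1.

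The high values in replicate 3 bear on every other gene, because TPM share a fixed total. Over the 8805 genes whose mean was at least 10 TPM, the 10 RNAs left out, the median log2 difference of replicate 3 to 1 was -0.24 as deposited and -0.06 after the 10 RNAs were taken out of the total. Against replicate 2 it was -0.23 and -0.06. Between replicates 2 and 1 it was -0.01 and 0.00. Of the 8805 genes, 7.22% were higher in replicate 3 than in replicate 1 as deposited, and 33.9% with the 10 RNAs out of the total. The ratios of RN7SL1, RMRP and RNY1 stayed past 2-fold in both pairs with replicate 3 under that scaling.

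The 6 genes at 0 were set against the annotation, since a read that falls in exons of more than one gene on a strand may be assigned to none of them. RN7SL2, RN7SK, RPPH1, TERC and VTRNA1-1 share exonic bases with another gene on the same strand, and RN7SL1, RMRP, BCYRN1, RNY1 and RNY3 share none. RN7SK (ENSG00000283293, chr6:52995621-52995948, plus strand, 328 bases) is annotated a further time under the name 7SK with all of its bases, and that copy also had 0 reads. RPPH1 (chr14:20343075-20343407, minus strand, 333 bases), RN7SL2 and VTRNA1-1 (ENSG00000199990, chr5:140711275-140711373, plus strand, 99 bases) lie with 100% of their bases in exons of long noncoding RNA genes. TERC (ENSG00000270141, chr3:169764520-169765060, minus strand, 541 bases) shares 438 bases, or 81.0%, with a second annotation of the telomerase RNA that had 0 reads. A value of 0 for these 5 genes was therefore not read as a lack of the RNA.

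Sharing was also counted across the annotation. Of the 1062 noncoding genes of at most 600 bases whose exonic bases were all shared on the same strand, 1062 had 0 reads in every replicate. With those included, 1264 genes shared at least 80% of their bases, as TERC does. Of these, 1245 had 0 reads and 19 had reads. Where none were shared, 15757 of 20017 genes (78.7%) had 0 reads. RNY3 is the member with 0 reads that shares no base, and it is also the one of those 6 with no window found once in the genome, so its 0 was not read as a lack of the RNA either. RN7SL1 has no such window either and had the highest TPM in every replicate. RMRP, RPPH1 and TERC are each unique in all windows, and reads were assigned to RMRP but not to RPPH1 or TERC. How the authors' counting treated reads with several places or several genes is not given in the sources used here, and its part in the zeros, and that of copies in the genome, was not tested.

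**Figure D3:**
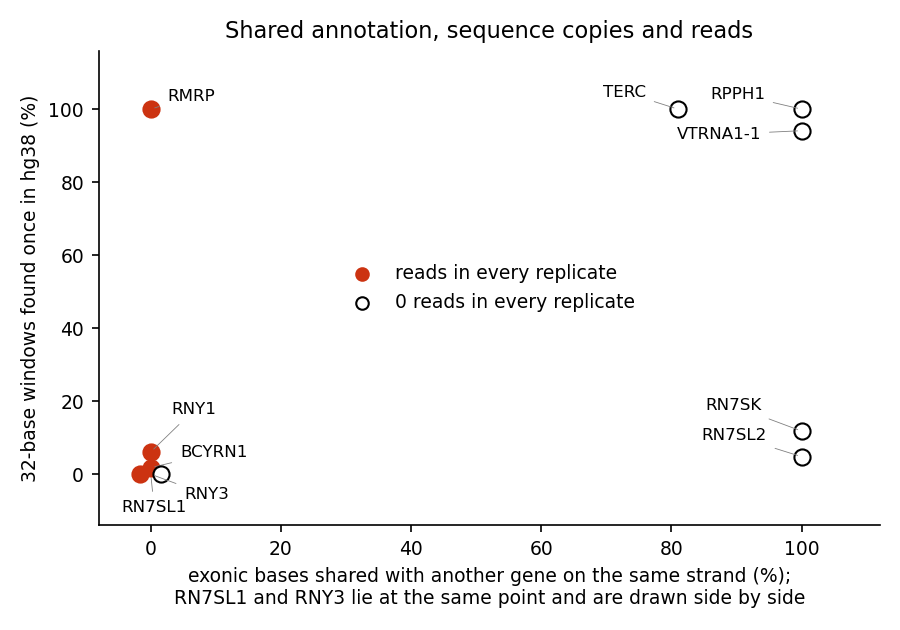
For each of the 10 RNAs, the share of exonic bases that lie in exons of another gene on the same strand (horizontal, %) and the share of 32-base windows found once in hg38 (vertical, %), filled where reads were assigned in every replicate. The 5 genes at 81.0% or 100% shared had 0 reads, and of the 5 genes at 0% shared all but RNY3 had reads.

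Other short RNAs were compared with the 10. Among the related genes, VTRNA1-3, which is 83.0% identical to VTRNA1-1, had 47.4, 71.3 and 111 TPM from 22, 34 and 44 reads, so a vault RNA was measured although VTRNA1-1 was listed at 0. VTRNA1-2 had 1, 1 and 3 reads, and VTRNA2-1, with 78.9% of its bases shared, had 0. Of 14 spliceosomal and other small nuclear and nucleolar RNAs, 7 reached 1 TPM in each replicate and 5 had 0 reads (RNU2-1, RNU12, RNU7-1, SNORD3A and SNORD118). The highest, RNU4-2 of the U4 spliceosomal particle, had 47.4, 54.1 and 54.2 TPM and RNU4-1 had 36.6, 19.8 and 55.7 TPM. RNU1-1 of the U1 particle had 32.6, 37.4 and 20.5 TPM and was lowest in replicate 3. RNU5A-1, RNU5B-1, RNU4ATAC and RNU6ATAC had means between 11.4 and 20.04 TPM, and RNU6ATAC, with 2, 3 and 15 reads, was the single gene of the 14 above that minimum mean of 1 TPM to be at least 2-fold higher in replicate 3 than in replicate 1. RNU6-1 and RNU11 had at most 1 read in a replicate. On the same strand, RNU12 and SNORD118 share 100%, RNU7-1 98.4% and RNU11 97.8% of their exonic bases with other genes. RNU2-1, SNORD3A and RNU6-1 share none. The values of 0 were not read as a lack of these RNAs. Many of the 14 RNAs have further copies in the genome, so their reads are uncertain too.

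The genes whose replicate pattern was most like that of RN7SL1, by the distance between centred log2(TPM + 1) values over the 3 replicates among 1608 genes of at least 100 TPM, were RN7SL3 (0.096), SNORA73B (0.226), SCARNA7 (0.317), MT-ATP8 (0.416) and SCARNA21 (0.457). With only 3 replicates, many genes share an order. SNORA73B, a small nucleolar RNA of 204 bases, had 308, 387 and 828 TPM. SCARNA7, a small Cajal body RNA of 330 bases, had 87.1, 115 and 366 TPM, and SCARNA21, of 139 bases, had 88.0, 130 and 221 TPM. MT-ATP8, a mitochondrial gene for a subunit of ATP synthase with a length of 207 bases, had 257, 204 and 765 TPM. The 5 genes are all shorter than 350 bases. The share of such short genes among the 1608 is not given here.

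Length was compared with the difference between replicates over all nuclear noncoding genes whose mean was at least 10 TPM, with a boundary of 350 bases chosen after the values were seen. Of 180 genes up to 350 bases, the 10 RNAs left out, 44 (24.4%) were at least 2-fold higher in replicate 3 than in replicate 1 and 16 were at least 2-fold lower. Against replicate 2 the counts were 29 higher and 36 lower, so by these counts higher genes outnumbered lower ones only against replicate 1. In replicate 2 over 1 the counts were 31 higher and 10 lower. The sums over all 12755 annotated genes of this length, the 10 RNAs left out, had different orders. Their share of all reads was 0.0596%, 0.0803% and 0.106% in replicates 1, 2 and 3, highest in replicate 3. Their share of all TPM was 1.07%, 1.449% and 1.425%, highest in replicate 2. Of 246 genes over 350 bases, 0 were at least 2-fold higher in replicate 3 in either pair, and 4 were lower against replicate 1 and 13 against replicate 2. Of 8364 protein-coding genes, 5 were higher and 2 lower against replicate 1, and 1 was higher and 3 lower against replicate 2. The types of short RNA differed. Of 4 small Cajal body RNAs, 4 were higher against replicate 1 and 3 against replicate 2, with none lower. Of 58 small nucleolar RNAs, 17 were higher and 5 lower against replicate 1, and 13 higher and 7 lower against replicate 2. Of 35 small nuclear RNAs, 6 were higher and 2 lower against replicate 1, and 5 higher and 6 lower against replicate 2. Short genes also hold fewer reads at the same TPM, which widens their spread in both directions. The labels give a desired insert size of 200 to 300 bp for the libraries, and the RNAs with reads are 113 to 299 bases long. The part of RNA size, of the libraries or of the cells in the difference was not tested.

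**Figure D4:**
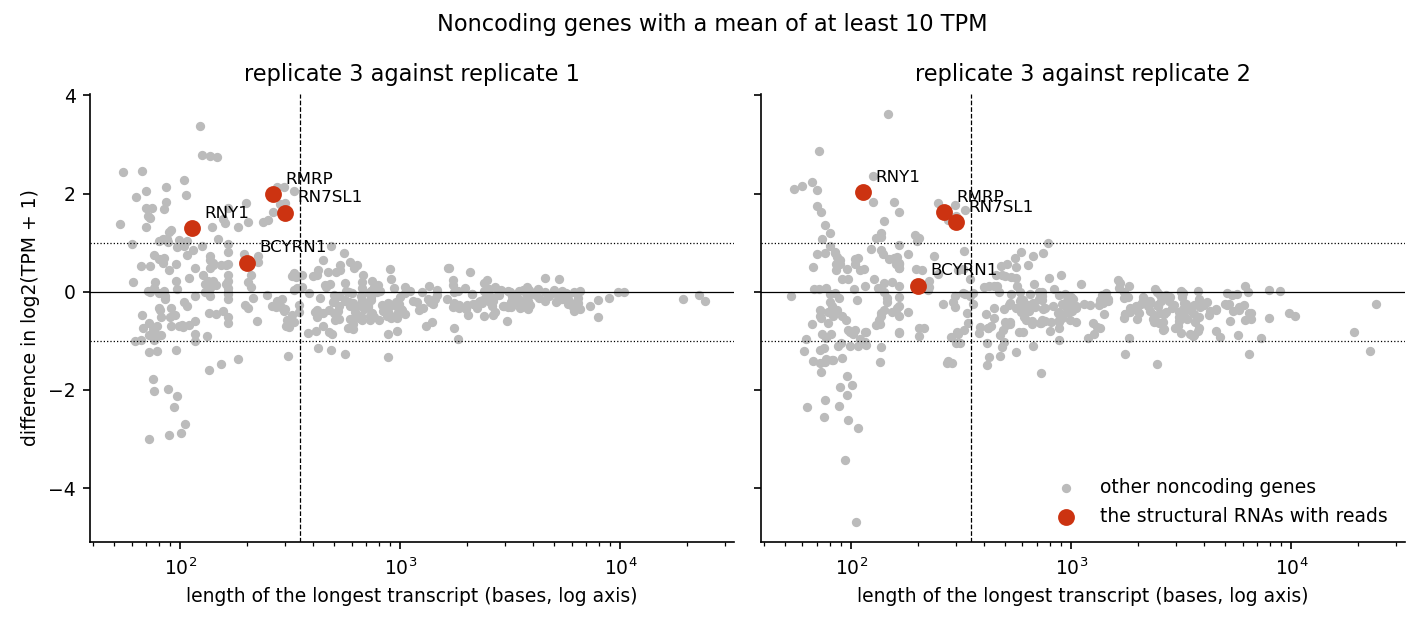
Difference in log2(TPM + 1) of replicate 3 to replicate 1 (left) and to replicate 2 (right) against the length of the longest transcript (bases, log axis) for nuclear noncoding genes whose mean was at least 10 TPM. Dotted lines mark 2-fold and the dashed line 350 bases, RMRP (1.98 and 1.62) and RN7SL1 (1.61 and 1.41) lie above 1 in both panels, and the other short genes spread to both sides, more of them below -1 in the right panel (36) than in the left (16).

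The mRNAs of the proteins that work with these RNAs were measured in all replicates and differed less between them than RN7SL1 and RMRP. Protein levels were not measured. Because RN7SL1 and RMRP were picked for their difference between replicates, nothing is read from this contrast. All 8 genes for proteins of the signal recognition particle and its receptor reached 1 TPM in each replicate. They ranged from SRP19 at 3.43 ± 0.623 TPM to SRP9 at 242 ± 18.8 TPM (SD, n = 3 each), with a median log2 difference of replicate 3 to 1 of -0.22. The same median over all 15640 genes was -0.21. SRP19 shares 18.2% of its exonic bases with other genes on the strand. For the 7SK particle and P-TEFb, 7 of 7 genes were at or above 1 TPM, from HEXIM2 at 5.75 ± 1.61 TPM to HEXIM1 at 58.6 ± 6.66 TPM (SD, n = 3 each), both inhibitors of P-TEFb, with a median difference of -0.29. The mRNAs of the protein partners of RN7SK were thus measured where RN7SK itself was listed at 0.

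Of 11 genes for proteins of RNase P and RNase MRP, 10 reached 1 TPM in each replicate, POP7 being highest at 137 ± 12.7 TPM (SD, n = 3). The exception was RPP21, with 0.765, 0.620 and 0.749 TPM, of whose exonic bases 28.1% are shared. The median difference of these genes was -0.21, beside -0.21 over all genes of at least 1 TPM. For telomerase, TERT, its reverse transcriptase, was lowest of 7 genes at 1.71 ± 0.168 TPM and NHP2, a protein of H/ACA particles, highest at 395 ± 43.3 TPM (SD, n = 3 each). Of the genes for vault proteins, PARP4 had 61.0 ± 5.24 TPM and TEP1 had 9.02 ± 0.703 TPM (SD, n = 3 each). Of the genes for proteins that bind Y RNAs, SSB, which encodes La, had 209 ± 21.5 TPM and RO60 had 72.8 ± 10.2 TPM (SD, n = 3 each).

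All 13 genes for subunits and all 17 genes for factors of RNA polymerase III transcription in the lists reached 1 TPM in each replicate. Among the subunits, POLR1D was highest at 68.9 ± 7.82 TPM and POLR3GL lowest at 6.39 ± 1.11 TPM (SD, n = 3 each). Among the factors, GTF3A, the factor for 5S ribosomal RNA genes, was highest at 250 ± 35.6 TPM and SNAPC1, a subunit of the complex that binds in front of the 7SK and RMRP type of gene, lowest at 5.09 ± 0.949 TPM (SD, n = 3 each). POLR3GL shares 21.1% and SNAPC1 21.8% of their exonic bases with other genes on the strand. The median differences of replicate 3 to 1 were -0.27 for the subunits and -0.29 for the factors. No gene of the 8 protein lists was past 2-fold, higher or lower, in any pair of replicates. Over all 15640 genes, 437 were higher and 547 lower in 3 over 1. In 3 over 2 these were 262 and 1133, and in 2 over 1 they were 933 and 208. Of 8364 protein-coding genes of at least 10 TPM, 5 were higher and 2 lower in 3 over 1, so nothing is read from the count of 0.

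**Figure D5:**
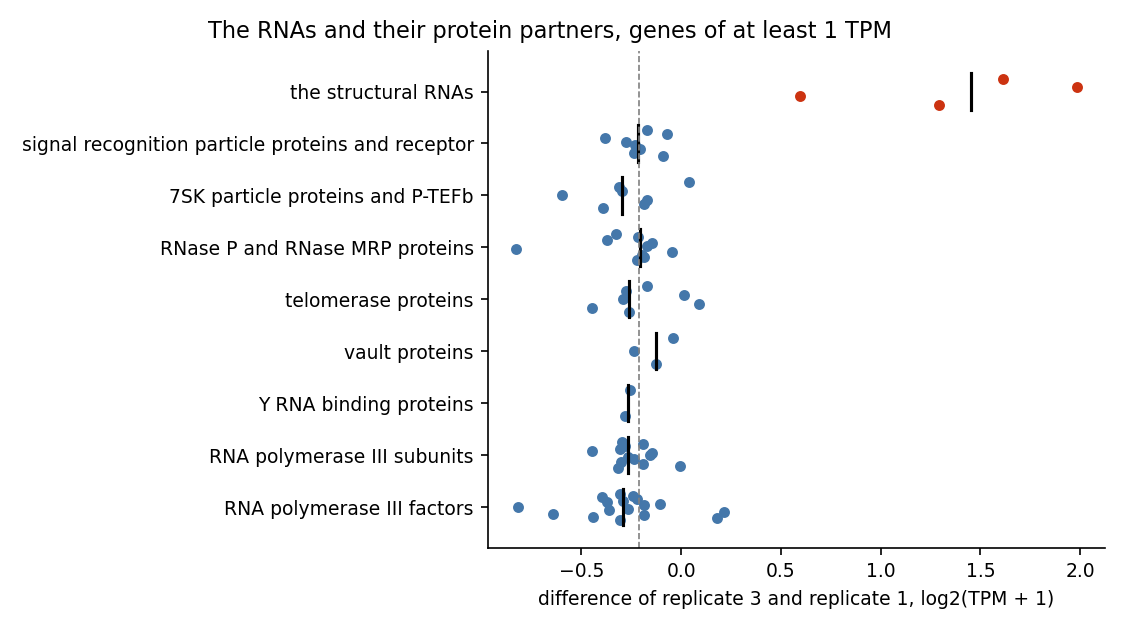
Difference of replicate 3 and replicate 1 in log2(TPM + 1) for the 4 structural RNAs with reads and for the protein-coding genes of each list, genes whose mean was at least 1 TPM, with a black bar at the median of each list and a dashed line at the median of -0.21 over 15640 genes. The structural RNAs lie between 0.60 and 1.98, and every gene of the protein lists lies between -1 and 1.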

How the data were processed

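RNA-seq libraries were made from 3 replicates of untreated empty-vector MCF10A cells, from total RNA depleted of ribosomal RNA. The authors deposited TPM values of 62754 genes per replicate. Per the submitters' processing notes, STAR, fastp and MultiQC were used with hg38. The paper names Seq2science, and the use of strand and the treatment of reads with several places are not given in the sources used here. No column of values was left out.

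Positions, types and lengths were taken from GENCODE release 44, in which 54 genes were not found. The product of TPM and length (longest transcript, 1 base less per exon) was divided, replicate by replicate, by its smallest nonzero value. It was whole within 0.01 for 100% of genes and taken as reads, which rests on the smallest step being 1 read. A count of 0 allows 3 reads. Intervals, at a confidence level of 95%, and these limits cover counting error only. The replicates were not the same library, with a mean chi-square per gene of at least 6.57 for each pair.

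The members and the lists (118 genes, 117 found by symbol, RNY5 being the exception) were chosen with earlier results of these data known. Named genes are the 10 RNAs, all genes of the short RNA lists, the highest and the lowest gene of each protein list and any below 1 TPM in a replicate, and the 5 genes nearest to RN7SL1. With 1 condition, no groups were compared and no test was run. Differences used log2(TPM + 1) over genes whose mean reached 1 TPM. Shared bases were counted between exons of all annotated transcripts on the same strand. Sequences were read from hg38 at GENCODE positions, and those of some of the RNAs are not reported here. Alternatives varied the scaling, cutoff, pseudocount, fold, filter and replicates. On simulated reads for replicates 3 and 1 over 62700 genes, 100% of reads were returned and 100% of 200 genes changed 4-fold were past 2-fold, against 0.0% of 8259 unchanged genes. Both sets had a mean of at least 200 reads and counting noise only. At that depth the outcome was close to fixed beforehand. It does not cover genes with fewer reads, such as RNY1 and BCYRN1. Python 3.11.15, numpy 2.4.6, pandas 2.3.3, scipy 1.17.1, biopython 1.88 and matplotlib 3.10.9 were used.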

Additional observations from a re-analysis of the deposited data

How the results depend on the processing

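No paired analysis was possible because there is a single condition. The count of 4 RNAs at or above 1 TPM was the same at every cutoff tried. The 10 RNAs held 9.62% of all TPM on average, 1.07% of recovered reads, and from 5.89% to 11.7% of TPM with 1 replicate left out, the lowest without replicate 3. The counts past 2-fold of 3, 3 and 0 were the same under each scaling, pseudocount and filter, including the RNAs left out of the total, a scaling chosen after seeing the data. At 3-fold they were 2, 2 and 0, and at 1.5-fold 4, 3 and 1, the last being RNY1, lower in replicate 2. The median spread of 0.95 was 0.00 with no filter, since 6 of 10 genes are then at 0, and from 0.29 (without replicate 3) to 1.07 with 1 replicate left out. The cause was not tested. The mean level of each RNA moved by less than 1 SD under each alternative. Depth limits RNY1 and BCYRN1, with at most 73 reads in a replicate.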

Other observations

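Copies of 7SK other than RN7SK, 300 in the annotation, carried 82, 217 and 106 reads in replicates 1, 2 and 3, with 64 copies having any read, while RN7SK and its double annotation had 0. Per 1000000 reads this was 5.37, 14.05 and 9.49, highest in replicate 2. The same replicate was highest for the Y RNA copies, and for 7SL copies other than RN7SL1, RN7SL2 and RN7SL3 the values per 1000000 reads were 34.2, 60.8 and 71.7. The thinly covered copies thus did not all follow the order of RN7SL1 over the replicates.

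Of 8 mitochondrial tRNA genes whose mean was at least 10 TPM, 5 were at least 2-fold higher and 1 lower in replicate 3 than in replicate 1, and 2 were higher and 1 lower against replicate 2. Of 35 microRNA genes at this level, 11 were higher and 5 lower against replicate 1, while 5 were higher and 13 lower against replicate 2. Of 182 long noncoding RNA genes, 1 was higher and 3 were lower against replicate 1, and 0 were higher and 10 lower against replicate 2.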
